A study of Solanum lycopersicum with 12 samples.

Results

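The subject is the early response of tomato stems to a hanging weight, read as the comparison of weighted with control stems at 6 h across every gene listed for that time. The members were all genes of that table, whatever their function, and 3 weighted libraries were set against 3 control libraries. The table holds 5346 genes, of which 5257 could be read plainly; the digits of the other 89 had run together and they enter only as an alternative. Genes reaching 1 FPKM in 3 or more libraries, 4939 in all, were tested, and 318 fell below that limit.

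The plants were tomato (Solanum lycopersicum) of the cultivar Ailsa Craig, grown singly in pots in a greenhouse with 16 h of light and 8 h of dark at about 28 °C. In the weighted group a wooden clamp of 3 g hung from the top of stems 4.5 to 5 cm tall for 48 h, and control plants carried none. Stems were taken 6 h after the start of the load by the series' design text, with the clamp still in place, whereas the sample labels call the same time 6 hours post treatment. Each group had 3 biological replicates, and the series of 12 libraries has 2 further groups taken 10 days after the load ended, used here only as a check.

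A growing stem bears its own weight through turgor and cell walls, and plant stems are known to respond to bending and loading with changes in growth, hormones and wall composition. Stem growth rests on division, for which spindle and cell-plate microtubules and their kinesin motors are needed, on protein synthesis, and on wall loosening and stiffening. Peroxidases, copper proteins and membrane oxidases act at the wall surface, where the same families also serve defence.

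The values are FPKM, fragments per length of transcript and per number of mapped fragments, as the authors gave them, and a difference here is the mean of log2(FPKM + 1) in weighted stems minus that in control stems. The table holds genes that the authors had already selected for differing at 6 h. The legible Q values of the authors' deposited table were under 0.05 for 2989 of 2989 genes, so a call in these libraries is not independent evidence that a gene changed. Among genes so selected, the comparison can describe the direction, size and evenness of the differences. Selection raises the sizes and the share of genes whose groups do not overlap. Sums of FPKM over the table were 293471 to 299023 in weighted and 276278 to 281814 in control libraries; read depth is unknown. Across genes, log2 values of replicates correlated at 0.9887 to 0.9917 within the weighted group and at 0.9826 to 0.9899 within the control group.

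With limma and Benjamini-Hochberg adjustment, 4905 of the 4939 tested genes (99.3%) passed an adjusted p of 0.05 and are termed called. Of these, 2387 (48.3% of the tested genes) were higher and 2518 (51.0%) lower in weighted stems. These shares are the background against which each gene group is read below. Most differences were small: 43.0% of the called genes differed by less than 0.5 and 42.7% by 0.5 to 1 on the log2 scale. A difference of at least 1 was reached by 354 higher genes (7.17% of those tested) and 349 lower genes (7.07%), together 14.2%. Beyond 2 the balance was uneven, with 67 higher and 22 lower genes. The 3 weighted values did not overlap the 3 control values in 4718 genes, or 95.5%. The median difference over all tested genes was -0.25, the median absolute difference 0.55 and the median standard error 0.12. Few of the selected genes lay near 0. The median of a group with near-even counts can therefore fall on either side of 0 and is not read as a shift. These are bulk stems, so fewer cells of a type and less RNA per cell cannot be told apart in any of the results.

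**Figure D1:**
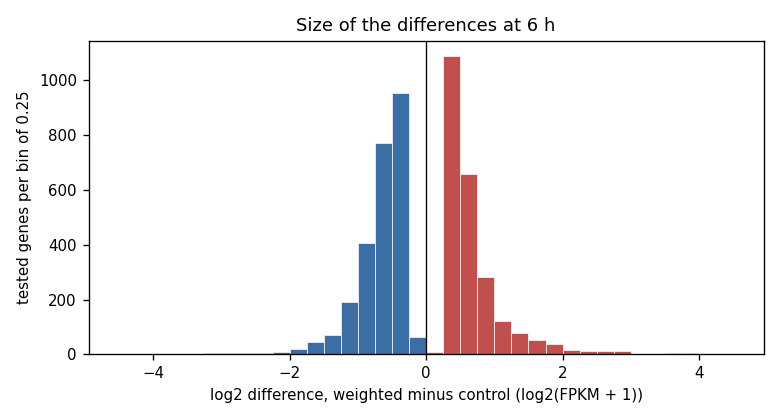
Number of tested genes per bin of log2 difference, weighted minus control, at 6 h; bars are genes, and a vertical line marks 0. Few genes lie near 0 because the table holds genes chosen for differing, and the right tail beyond 2 holds more genes (67) than the left tail beyond -2 (22).

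**Figure D2:**
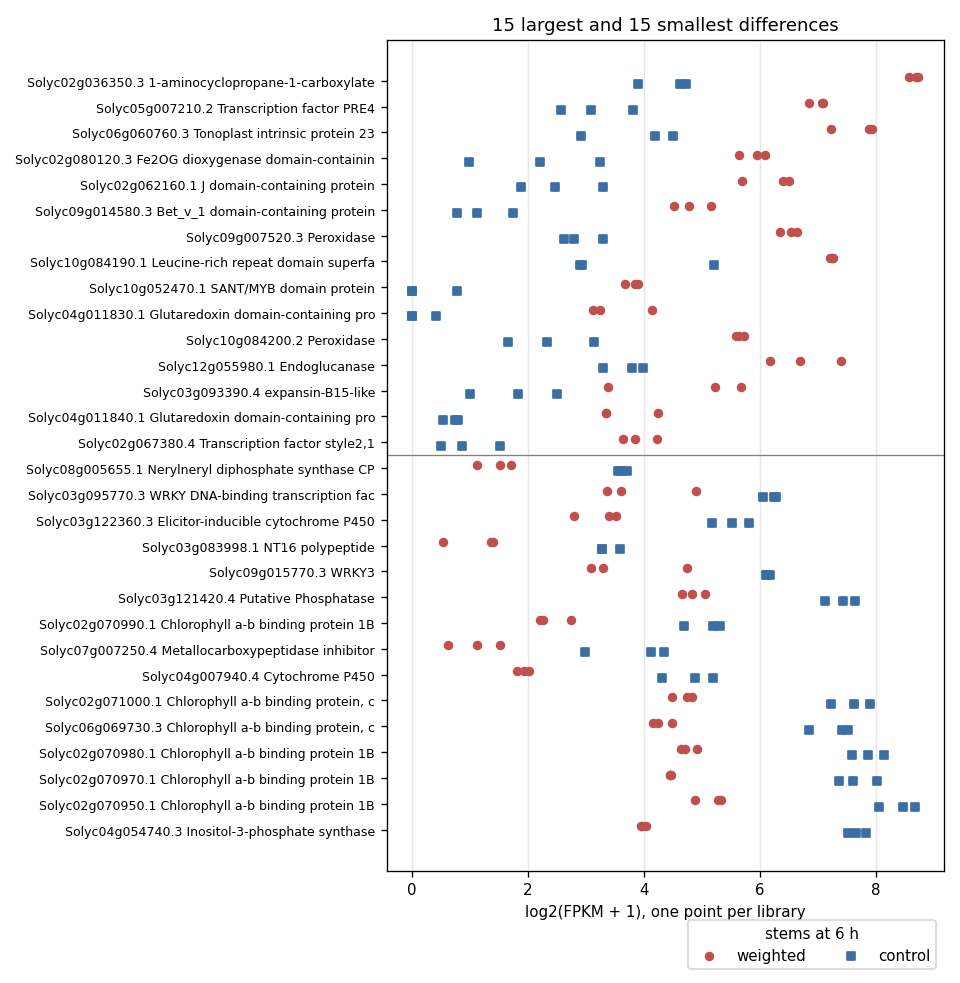
The 15 largest and 15 smallest differences among named genes whose groups do not overlap, with 1 point per library on an axis of log2(FPKM + 1), in weighted and control stems. The peroxidase Solyc09g007520.3 lies between 80.1 and 97.8 FPKM in weighted stems and between 5.18 and 8.79 FPKM in control stems.

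Genes of ribosome assembly, translation factors and tRNA charging were higher with few exceptions. Of 33 tested genes of ribosome biogenesis and the nucleolus, where ribosomal RNA is made and trimmed, 32 were called higher and 1 lower, at a median difference of 0.58. Of 35 genes in the list of translation factors, 34 were higher and 1 lower (median 0.42), and all 9 genes of aminoacyl-tRNA synthesis and editing, which load and proofread the amino acids for the ribosome, were higher (median 0.44). The background for calls in this direction was 48.3%.

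The largest difference in the nucleolar list was in a gene of the rRNA-processing protein EBP2, Solyc01g006090.3, with 19.8, 16.9 and 14.2 FPKM in weighted stems, against 6.33, 6.34 and 10.3 FPKM in control stems (log2 difference 1.07, SE 0.20, limma adjusted p = 0.00302). A second EBP2 gene, Solyc01g006170.4, had 63.8, 63.8 and 51.2 FPKM in weighted stems, against 25.5, 24.5 and 43 FPKM in control stems. In both genes the groups stayed apart, as in 95.5% of all tested genes. Replicate 3 was the lowest of the weighted and the highest of the control libraries. Fibrillarin, the methyltransferase of the small nucleolar particles that modify ribosomal RNA, is among the abundant members: Solyc03g025270.3 had 309, 338 and 254 FPKM in weighted stems, against 151, 164 and 222 FPKM in control stems, and it was named after its value was seen. The single lower member was an rRNA adenine methyltransferase, Solyc01g091800.3, with 9.14, 11.3 and 10.6 FPKM in weighted stems, against 14.9, 15.6 and 14.4 FPKM in control stems.

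Among the translation factors the differences were even. All 11 genes named as subunits of initiation factor 3, the scaffold of the small ribosomal subunit during initiation, were higher; they were picked out after their values were seen. The largest difference in the list was in an elongation factor 1-alpha gene, Solyc11g069700.2, with 8.46, 11.6 and 9 FPKM in weighted stems, against 2.57, 1.77 and 3.17 FPKM in control stems. It is a minor gene of a factor that brings aminoacyl-tRNA to the ribosome, and its copies may share reads. A gene named after GUF1, a factor of organellar translation, Solyc07g053470.4, had 58.4, 61.9 and 55.8 FPKM in weighted stems, against 27.4, 29 and 38.7 FPKM in control stems. The lower member, Solyc06g068230.4, carries the name protein TSS and not that of a factor, and had 15.1, 16.1 and 14.4 FPKM in weighted stems, against 33.5, 33.5 and 26.9 FPKM in control stems.

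The pentatricopeptide repeat proteins, which bind and edit or stabilise single transcripts in plastids and mitochondria, formed the most one-sided large family. Of 85 tested genes, 82 were called higher and 3 lower, at a median difference of 0.42. The list follows annotation text and holds a few genes with other leading names. A single gene stood far above the rest: Solyc09g082810.3 had 19.8, 37.3 and 31.6 FPKM in weighted stems, against 4.04, 0.8 and 7.15 FPKM in control stems, a log2 difference of 2.82. All 21 genes with the DYW deaminase domain, the part that converts C to U in organellar transcripts, were higher, between 0.30 and 0.62. Many of these genes are weakly expressed, and only 22 of the higher ones remained in a test restricted to genes of at least 5 FPKM. Leaving out single libraries left between 66 and 82 of the 85 called higher. Genes of plastid and mitochondrial ribosomal proteins went 11 higher and 5 lower of 16 (median 0.48).

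Genes that fold proteins and carry them through the secretory pathway were also mostly higher. In the list of chaperonins, protein disulfide isomerases and peptidyl-prolyl isomerases, 23 of 28 were higher and 5 lower (median 0.51), and the 5 lower genes were all prolyl isomerases. The mitochondrial chaperonin Solyc09g091180.3 had 130, 130 and 109 FPKM in weighted stems, against 55.2, 60.4 and 89.8 FPKM in control stems. A protein disulfide-isomerase, Solyc06g005940.3, had 279, 275 and 299 FPKM in weighted stems, against 155, 171 and 174 FPKM in control stems. It was named after its value was seen. Of 45 genes of vesicle coats, SNAREs and tethering complexes, 37 were higher and 8 lower (median 0.39). The AP-2 complex subunit alpha, Solyc11g066770.3, an adaptor of clathrin in endocytosis, averaged 37.9 ± 0.838 FPKM in weighted stems and 23.9 ± 1.19 FPKM in control stems (SD, n = 3 each). All 12 tested genes of coatomer, the coat of vesicles within the Golgi and back to the endoplasmic reticulum, were higher, by 0.33 to 0.56. Of 5 t-SNARE genes, which drive membrane fusion, 4 were lower, with a log2 difference of -1.34 in Solyc06g053760.3 and -1.11 in Solyc01g109750.2. The coatomer and t-SNARE groups were picked out after their values were seen.

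Genes of respiration were mostly higher. Of 47 genes of the citric acid cycle and the respiratory chain, 37 were higher and 10 lower (median 0.37). A small subunit of mitochondrial complex I, Solyc02g087330.3, had 291, 295 and 337 FPKM in weighted stems, against 129, 106 and 140 FPKM in control stems (log2 difference 1.30, SE 0.12, limma adjusted p = 0.000376). Fumarate hydratase, Solyc09g075450.3, had 110, 110 and 110 FPKM in weighted stems, against 59.5, 60.2 and 77.3 FPKM in control stems, and was named after its value was seen. The 10 lower members were 5 ATP synthase genes, of which 1 is named chloroplastic and none mitochondrial, 2 malate dehydrogenases, of which 1 is named chloroplastic, and 3 ubiquinol oxidases, the terminal oxidases of the alternative pathway. Another ubiquinol oxidase, Solyc11g011990.2, was higher by 0.56 on the log2 scale, and these members were picked out after their values were seen. Of 13 glycolysis genes 4 were higher and 9 lower (median -0.61), and a fructose-bisphosphate aldolase, Solyc01g110360.3, had 64.4, 103 and 81.7 FPKM in weighted stems, against 304, 256 and 142 FPKM in control stems.

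**Figure D3:**
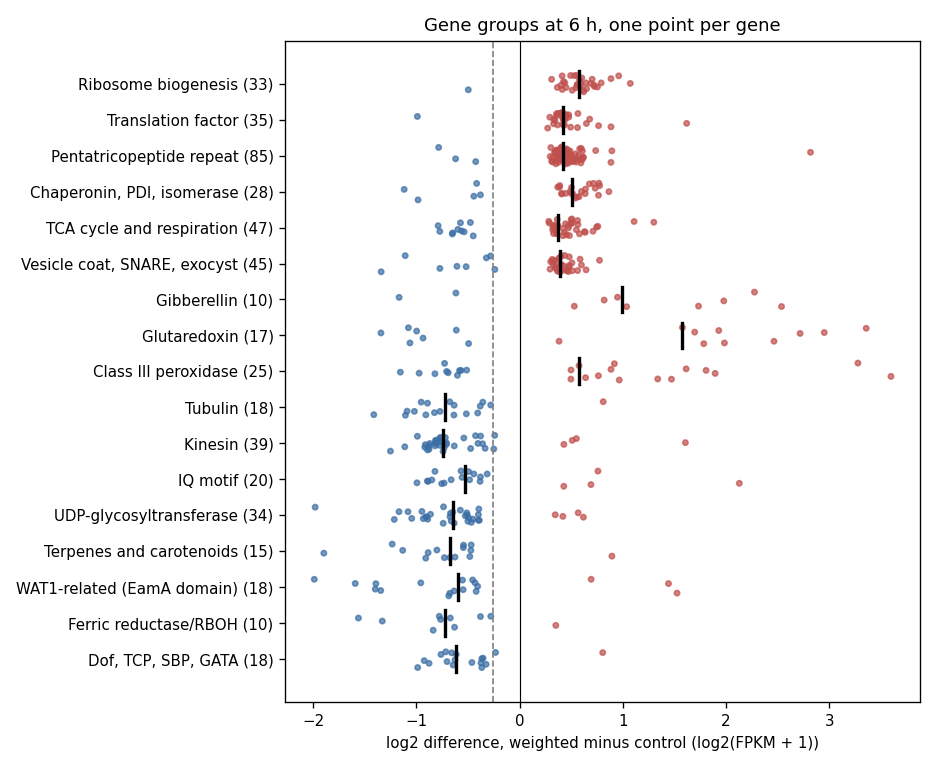
Differences of the tested members of gene groups at 6 h, with 1 point per gene on an axis of log2 difference, weighted minus control; black bars are group medians, the dashed line is the median of all tested genes, and numbers in brackets are tested genes. Ribosome biogenesis, translation factors and pentatricopeptide repeat proteins lie almost wholly right of 0, and kinesins, tubulin and microtubule proteins and UDP-glycosyltransferases almost wholly left of it.

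Genes of the dividing cell were lower as a body. Of 39 tested kinesin-type genes, motors that move along microtubules, 35 were lower and 4 higher (median -0.74), against a background of 51.0% lower. A list of tubulins and proteins that bind microtubules, made up mostly of genes with a TPX2 spindle domain, went 17 lower and 1 higher of 18 (median -0.72, or -1.09 with a pseudocount of 0.1). All 11 genes of DNA replication and repair were lower (median -0.41), and of 26 genes of cyclins and mitosis 23 were lower and 3 higher (median -0.69).

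The kinesin NACK1, which in tobacco drives growth of the cell plate, was among the most reduced motors: Solyc03g119220.3 had 4.2, 4.55 and 4.58 FPKM in weighted stems, against 8.74, 12.1 and 11.8 FPKM in control stems. NPK1, the kinase that NACK1 activates in tobacco, was also lower, with 6.72, 6.27 and 7.04 FPKM in weighted stems, against 11.7, 14.2 and 13.6 FPKM in control stems for Solyc01g079750.3. A gene of the tubulin family, Solyc02g087880.3, had 51.9, 47.2 and 47.2 FPKM in weighted stems, against 108, 144 and 146 FPKM in control stems. In all 3 genes each weighted value lay below each control value, while groups did not overlap in 95.5% of all tested genes. A gene named NACK2, Solyc02g084390.3, ran against NACK1, with 16.5, 15 and 14.1 FPKM in weighted stems, against 10, 8.96 and 11.2 FPKM in control stems. The largest difference among the 4 higher motors was in an armadillo-repeat kinesin, Solyc11g008350.2, with 11.2, 11.7 and 9.87 FPKM in weighted stems, against 3.01, 2.1 and 3.82 FPKM in control stems.

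Genes with an IQ calmodulin-binding motif, many of which encode scaffolds between calmodulin and microtubules, went 16 lower and 4 higher of 20 (median -0.53). The largest difference in the family ran upward, in a gene named after its value was seen. Solyc09g082560.4, with the DUF4005 domain of the IQD scaffolds, had 121, 102 and 105 FPKM in weighted stems, against 22, 17.9 and 35.5 FPKM in control stems (log2 difference 2.13, SE 0.23, limma adjusted p = 0.000517). Solyc08g014280.3, with the same domain, had 45.8, 44.8 and 52.1 FPKM in weighted stems, against 84.4, 98 and 85.1 FPKM in control stems. It was named after its value was seen, and is the more abundant of the lower members.

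Glutaredoxins, small enzymes that reduce disulfides with glutathione, split sharply. Of the 17 tested genes in which the deposited annotation finds a glutaredoxin domain, 10 were higher and 7 lower. Some of the higher genes, among them Solyc04g011830.1 and Solyc04g011840.1, passed the limit of 1 FPKM only through the weighted libraries and so had to differ, and the counts are given as a description. Restricted to genes of at least 5 FPKM, the median difference of the family was 0.38, compared with 1.58 at the limit of 1 FPKM. The 10 higher genes include 7 with closely spaced identifiers, from Solyc04g011800.1 to Solyc04g011880.1. Solyc04g011830.1 had 7.68, 16.6 and 8.4 FPKM in weighted stems, against 0.34, 0 and 0 FPKM in control stems. Solyc04g011840.1 had 9.14, 17.8 and 9.2 FPKM in weighted stems, against 0.68, 0.44 and 0.74 FPKM in control stems. Control stems thus held hardly any transcript of either gene.

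The remaining genes of the run were picked out after their values were seen. Solyc04g011880.1 had 11.7, 22.2 and 22.8 FPKM in weighted stems, against 4.79, 3.5 and 3.35 FPKM in control stems. Solyc04g011860.1 had 9.51, 31.6 and 8 FPKM in weighted stems, against 1.71, 0.88 and 2.6 FPKM in control stems. Solyc04g011800.1, Solyc04g011850.1 and Solyc04g011870.1 differed by 1.93, 1.70 and 1.78 on the log2 scale. Weighted replicate 2 was the highest library in 6 of the 7 genes. None of the 7 overlapped between the groups, as was the case in 95.5% of all tested genes. The copies resemble each other by name only here, and how reads shared between near-identical genes were counted is not given in the sources used here, so their single values are uncertain. The largest decrease in the family was in Solyc07g053550.3, with 52.8, 78.6 and 75.5 FPKM in weighted stems, against 213, 149 and 166 FPKM in control stems, so the rise was not shared by the whole family.

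**Figure D4:**
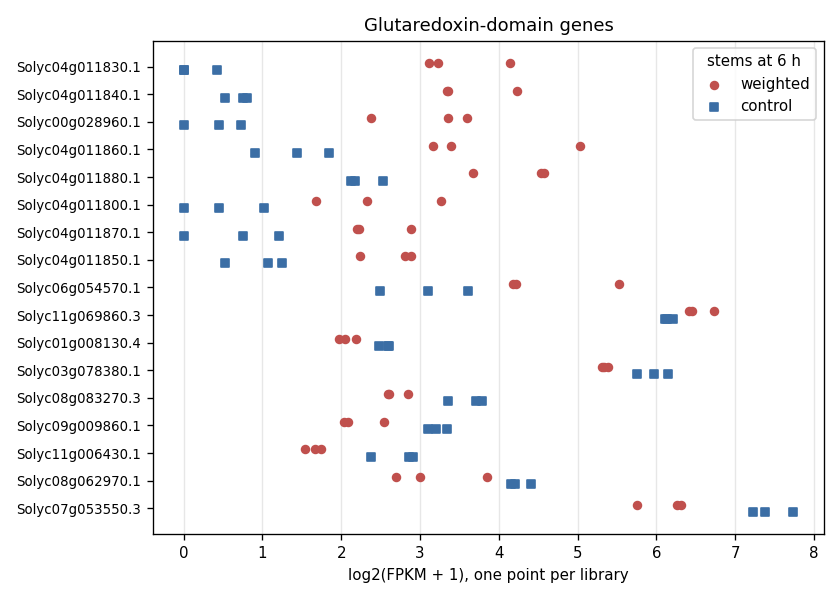
Glutaredoxin-domain genes at 6 h, with 1 point per library on an axis of log2(FPKM + 1), in weighted and control stems. The 7 genes from Solyc04g011800.1 to Solyc04g011880.1 lie higher in weighted stems, while 7 others, among them Solyc07g053550.3, lie lower.

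Class III peroxidases, secreted enzymes that can both cross-link and loosen wall polymers, went 15 higher and 10 lower of 25 (median 0.58). The size of the differences was uneven. Solyc09g007520.3 had 91.3, 80.1 and 97.8 FPKM in weighted stems, against 5.9, 5.18 and 8.79 FPKM in control stems (log2 difference 3.60, SE 0.18, limma adjusted p = 9.6e-05). Solyc10g084200.2 had 47.2, 48.5 and 52 FPKM in weighted stems, against 3.99, 2.15 and 7.83 FPKM in control stems. Both sets of values were many times higher with a weight, while the largest decrease, in Solyc02g084800.4, was to 18.7, 27 and 13.8 FPKM in weighted stems, against 50.7, 47.8 and 34.8 FPKM in control stems. Among the most abundant peroxidases, named after their values were seen, Solyc02g087190.1 averaged 378 ± 12.7 FPKM in weighted stems and 253 ± 16 FPKM in control stems, and Solyc01g006290.4 averaged 239 ± 9.96 FPKM in weighted stems and 372 ± 98.1 FPKM in control stems (SD, n = 3 each).

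Blue copper proteins and multicopper oxidases, another set of wall and surface proteins, divided evenly with 15 higher and 13 lower of 28 (median 0.48). Within it 6 of 7 laccases, which polymerise lignin precursors, were lower, while the 3 genes named dicyanin or stellacyanin, which are phytocyanins, were higher. This grouping by name was made with the values known. Over all 12 tested genes with a plastocyanin-like domain, 7 were higher and 5 lower (median 0.64). The dicyanin gene Solyc07g150104.1 had 27.2, 25.1 and 25.8 FPKM in weighted stems, against 3.29, 2.01 and 5.26 FPKM in control stems. Its neighbour by identifier, Solyc07g150103.1, had 336, 313 and 303 FPKM in weighted stems, against 97.4, 63.4 and 127 FPKM in control stems. In both genes all weighted libraries exceeded all control libraries, while groups did not overlap in 95.5% of all tested genes. The pair may share reads. A phytocyanin-like arabinogalactan protein, Solyc08g006790.4, ran the other way, with 34.6, 32.5 and 38.7 FPKM in weighted stems, against 84.4, 106 and 90.5 FPKM in control stems.

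Membrane oxidases of the ferric reductase type, which pass electrons across the membrane to iron or oxygen, were lower in 9 of 10 tested genes (median -0.72). The ferric reduction oxidase 4-like genes Solyc03g008015.1 and Solyc03g008013.1 had the largest decreases of the 5 ferric reduction oxidases, all of which were lower. Solyc03g008013.1 had 53.8, 45.7 and 79.3 FPKM in weighted stems, against 179, 139 and 128 FPKM in control stems. The family includes the respiratory burst oxidases, which make superoxide at the cell surface. Their homologs D (Solyc06g068680.3) and E-like (Solyc07g042460.2) differed by -0.28 and -0.84 on the log2 scale and homolog A (Solyc08g081690.3) by 0.35. The call for homolog D was lost in 6 of the alternatives, with limma adjusted p of 0.0655 and 0.0729 without weighted replicates 2 and 3, and of 0.0864 and 0.0541 without control replicates 1 and 2. The set and its members were picked out after their values were seen.

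WAT1-related proteins take their name from an Arabidopsis vacuolar transporter needed for the thick walls of stem fibres. Of 18 tested genes of the transporter family that holds them, all carrying that name, 15 were lower and 3 higher (median -0.59). Solyc04g007590.3 had 10.6, 13.3 and 11.4 FPKM in weighted stems, against 37.2, 43 and 32.5 FPKM in control stems. The most abundant, Solyc04g080940.4, had 312, 284 and 344 FPKM in weighted stems, against 450, 572 and 445 FPKM in control stems. An exception was Solyc11g005350.2, with 86.8, 77.3 and 91.8 FPKM in weighted stems, against 29.2, 30.6 and 32.3 FPKM in control stems. The family was not a gene list of its own, and these 3 genes were named after their values were seen.

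Genes that make and use inositol differed in opposite directions. Inositol oxygenase, which opens inositol to glucuronic acid, a precursor of wall polysaccharides, was higher: Solyc12g008650.2 had 69.1, 72.2 and 68.9 FPKM in weighted stems, against 16.9, 12.8 and 8.82 FPKM in control stems (log2 difference 2.40, SE 0.20, limma adjusted p = 0.000284). Inositol-3-phosphate synthase, which makes inositol, had the largest decrease of any named gene (Solyc04g054740.3, -3.68), and a second synthase gene, Solyc05g051850.3, had 40.2, 40.7 and 44.4 FPKM in weighted stems, against 54.7, 65.9 and 60.5 FPKM in control stems. The oxygenase and the second synthase gene were picked out after their values were seen.

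The sucrose list went 6 higher and 7 lower of 13, at a median of -0.48 that was -0.08 among genes of at least 5 FPKM. Among invertases, which split sucrose to glucose and fructose, the 3 genes named beta-fructofuranosidase were higher. The 3 named alkaline/neutral invertase were lower, with log2 differences of -0.63 to -0.49. These small classes were formed with the values known, the background was 48.3% higher and 51.0% lower, and no difference between classes was tested. Solyc08g079080.5 had 18, 18.3 and 22.1 FPKM in weighted stems, against 2.62, 1.33 and 3.53 FPKM in control stems, and Solyc10g083290.4 had 9.21, 14.2 and 8.56 FPKM in weighted stems, against 3.03, 2 and 4.52 FPKM in control stems. Sucrose synthases, which yield UDP-glucose, were lower in 3 of 4 genes. The abundant Solyc07g042520.4 had 447, 336 and 490 FPKM in weighted stems, against 653, 812 and 676 FPKM in control stems. The one higher synthase, Solyc12g009300.3, had 26.7, 26.2 and 28.7 FPKM in weighted stems, against 15.5, 15.1 and 13.7 FPKM in control stems, and was named after its value was seen. Starch genes were lower in 8 of 10 (median -0.36).

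Amino acid metabolism was lower in 30 and higher in 12 of 42 genes (median -0.47). Aspartokinase, the first enzyme on the way from aspartate to lysine, threonine and methionine, had 15.8, 19.3 and 14 FPKM in weighted stems, against 52.2, 55.2 and 50.3 FPKM in control stems (Solyc06g064550.3). Among the higher members a cysteine synthase gene, Solyc01g094790.3, had 45.9, 32.4 and 44.2 FPKM in weighted stems, against 14.8, 11.7 and 13 FPKM in control stems. Malate synthase, an enzyme of the glyoxylate cycle, belongs to no list and was picked out after its values were seen. Its 2 genes with successive identifiers were lower together, Solyc03g111130.1 with 17.1, 21.4 and 17.3 FPKM in weighted stems, against 77.9, 80.5 and 65.4 FPKM in control stems, and Solyc03g111140.3 with 22.5, 24.4 and 18.2 FPKM in weighted stems, against 100, 109 and 80.8 FPKM in control stems.

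Enzymes that make and decorate specialised metabolites were mostly lower. Of 34 UDP-glycosyltransferase genes, which attach sugars to hormones, flavonoids and other small molecules, 29 were lower and 4 higher (median -0.64). The largest decrease among them was in Solyc04g008330.1, with 1.44, 2.37 and 1.6 FPKM in weighted stems, against 11.2, 7.35 and 11.9 FPKM in control stems. Among the 4 higher genes, Solyc10g083860.3 and Solyc10g083870.2 are named for an ankyrin-repeat region and entered the list by domain text. Terpene and carotenoid genes went 14 lower and 1 higher of 15 (median -0.68), and MATE efflux carriers, which export such compounds, 12 lower and 3 higher of 16 (median -0.52). Flavonoid genes went 7 lower and 3 higher of 10 (median -0.78): chalcone synthase, the entry enzyme (Solyc05g053550.3), had 47.1, 37.3 and 52.5 FPKM in weighted stems, against 101, 153 and 83.6 FPKM in control stems. Leucoanthocyanidin dioxygenase, a late enzyme (Solyc08g006770.3), was nevertheless higher, with 64.4, 58.5 and 57.4 FPKM in weighted stems, against 25.4, 17.7 and 34.7 FPKM in control stems.

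In the cytokinin list, all 3 cytokinin dehydrogenases, which break the hormone down, were higher, by 0.42 to 0.60 on the log2 scale. Of 4 genes of the LOG type, which release the active hormone, 3 were lower and 1 higher. Over all tested genes 48.3% were called higher and 51.0% lower. These small classes were formed with the values known, and no difference between them was tested. The LOG gene Solyc10g084150.2 had 5.34, 4.36 and 5.5 FPKM in weighted stems, against 14.2, 19.8 and 9.93 FPKM in control stems. A type-A response regulator, Solyc10g079700.2, of a class induced by cytokinin that damps its signal, had 10.6, 7.45 and 7.86 FPKM in weighted stems, against 2.67, 2.04 and 3.13 FPKM in control stems. Another response regulator, Solyc05g014260.3, was lower, with 22, 17.3 and 24.6 FPKM in weighted stems, against 48.3, 65.9 and 37.6 FPKM in control stems. The list as a whole went 7 higher and 5 lower of 12 (median 0.41), near the background. The gibberellin list went 8 higher and 2 lower of 10 (median 0.99); its members are mostly small peptides of the gibberellin-regulated family, and Solyc03g116060.4 had 277, 314 and 231 FPKM in weighted stems, against 51, 37.5 and 88.6 FPKM in control stems.

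Several lists of transcription factors leaned lower to different degrees, against a background of 51.0% lower. Other factor families did not. Genes with an AP2 domain went 14 higher and 13 lower of 27 (median 0.64), a near-even split whose median is not read as a shift. Those with a heat shock factor domain went 5 higher and 5 lower of 10 (median 0.16). Of 18 genes of Dof, TCP, SBP and GATA factors, families tied to growth and phase change, 17 were lower and 1 higher (median -0.62), although only 11 were lower without weighted replicate 3. TCP factor 15, Solyc01g008230.4, had 113, 90.4 and 103 FPKM in weighted stems, against 164, 162 and 149 FPKM in control stems; it was named after its value was seen. MYB genes went 13 higher and 17 lower of 30 (43.3% higher), near the background of 48.3% higher. The bHLH genes went 13 higher and 21 lower of 35 (37.1% higher), and homeobox genes 8 higher and 18 lower of 27 (median -0.54). NAC genes went 3 higher and 7 lower of 10, with 4 lower without weighted replicate 3 or control replicate 1. GRAS genes went 2 higher and 6 lower of 8, with 0 higher without weighted replicate 1. Single factors stood out from these lists. A SANT/MYB gene, Solyc10g052470.1, had 11.8, 13.3 and 13.8 FPKM in weighted stems, against 0, 0 and 0.71 FPKM in control stems. That gene passed the limit of 1 FPKM only through the weighted libraries and so had to differ. The bHLH gene style2.1, Solyc02g067380.4, known for its part in style length in tomato, had 13.4, 11.4 and 17.6 FPKM in weighted stems, against 0.81, 0.41 and 1.87 FPKM in control stems. The style2.1 gene also needed the weighted libraries to pass the limit of 1 FPKM. HY5, Solyc08g061130.3, a bZIP factor that promotes light-grown development, had 7.87, 9.29 and 8.86 FPKM in weighted stems, against 3.53, 4.28 and 3.94 FPKM in control stems.

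Genes of stress and defence gave no common direction. Heat shock factors and proteins went 16 higher and 14 lower of 30; the factor A-6b, Solyc06g053950.3, had 6.55, 5.66 and 6.15 FPKM in weighted stems, against 1.64, 1.75 and 1.4 FPKM in control stems, and a heat shock cognate 70 kDa gene, Solyc06g076020.3, had 95.6, 90.2 and 109 FPKM in weighted stems, against 250, 204 and 216 FPKM in control stems. Pathogenesis-related proteins, chitinases and glucanases went 9 higher and 18 lower of 27 (median -0.41). Of 11 protease inhibitors 8 were lower (median -0.88), and a metallocarboxypeptidase inhibitor, Solyc07g007250.4, had 1.18, 0.54 and 1.87 FPKM in weighted stems, against 19.3, 16.4 and 6.92 FPKM in control stems. All 3 genes named NIM1-INTERACTING 2, after partners of the salicylic acid regulator NPR1, were lower, with 34.4, 31.7 and 32.8 FPKM in weighted stems, against 78.2, 84.8 and 82.1 FPKM in control stems in Solyc03g119600.1, the most abundant; they were named after their values were seen.

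Several transporter families leaned to a side, and single genes differed more. Carriers of the major facilitator superfamily went 12 lower and 1 higher of 13 (median -0.47), the higher call being lost without weighted replicate 1. Phosphate and sulfate transport genes went 12 lower and 3 higher of 15, with 6 lower without weighted replicate 3 and 7 without control replicate 2. The potassium channel subunit gene KAT3-like, Solyc01g010080.3, had 7.63, 6.97 and 7 FPKM in weighted stems, against 0.48, 0.35 and 1.43 FPKM in control stems. The transporter ABCG23, Solyc03g113690.1, had 8.24, 5.01 and 5.88 FPKM in weighted stems, against 0.1, 0.19 and 0.61 FPKM in control stems. A gene with a heavy-metal-associated domain, Solyc03g080110.3, had 10.9, 6.71 and 9.5 FPKM in weighted stems, against 0.53, 0.28 and 0.33 FPKM in control stems. All 3 thus had low values without a weight. The ABCG23 gene and the heavy-metal-associated gene reached 1 FPKM in no control library. They passed that limit only through the weighted libraries and so had to differ. The KAT3-like gene also needed the weighted libraries to pass. All 8 tested genes named V-type proton ATPase subunits, which acidify the vacuole, were higher, between 0.32 and 0.63 on the log2 scale; they were picked out after their values were seen and 3 of them are neighbours that may share reads. Sulfate transporters were lower in 5 of 5 tested genes, also picked out afterwards, and the low affinity carrier Solyc04g054730.3 had 27.5, 34.9 and 32.4 FPKM in weighted stems, against 69, 99.7 and 60.6 FPKM in control stems.

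By counts of members, the marker lists for xylem and for trichomes and epidermis were lower on balance, while those for phloem and for other organs were not. The xylem list is the same 7 laccases described above, which went 1 higher and 6 lower, and their summed level was 40.5 to 52.9 FPKM in weighted stems and 65.2 to 96.5 FPKM in control stems. The trichome and epidermis list, which shares Solyc08g005640.4 with the terpene list, went 2 higher and 5 lower of 7, with summed levels of 110 to 155 FPKM in weighted stems and 226 to 247 FPKM in control stems. The phloem list holds only 4 F-box genes by name and summed to 87.2 to 114 FPKM in weighted stems and 85.3 to 146 FPKM in control stems, so its groups overlapped; its single lower call was lost without weighted replicate 1 or 2 or control replicate 1 or 3. Of 5 markers of root, fruit, flower and pollen 3 were higher and 2 lower. Their summed level was 382 to 426 FPKM in weighted stems and 416 to 483 FPKM in control stems, so it leaned lower with overlap. Without weighted replicate 1 or 2 only 1 was called lower. No marker was at 0 in any library. The part that tissue make-up plays in the other differences was not tested.

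The libraries were not equally far apart in every group. In ribosome biogenesis the median deviation from each gene's mean over the 6 libraries was 0.32, 0.43 and 0.11 in weighted replicates 1, 2 and 3, and -0.40, -0.36 and -0.10 in control replicates 1, 2 and 3. Replicate 3 of each group thus lay nearest the other group, as it also did for translation factors, chaperonins and DEAD-box helicases. Without control replicate 3 the ribosome biogenesis list still had 32 genes higher and 1 lower, at a median of 0.69. The kinesins showed less of this, at -0.33, -0.36 and -0.34 in the weighted libraries and 0.23, 0.42 and 0.45 in the control libraries. Among glutaredoxins weighted replicate 2 stood highest, at 1.09, against 0.22 and 0.39 in weighted replicates 1 and 3.

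**Figure D5:**
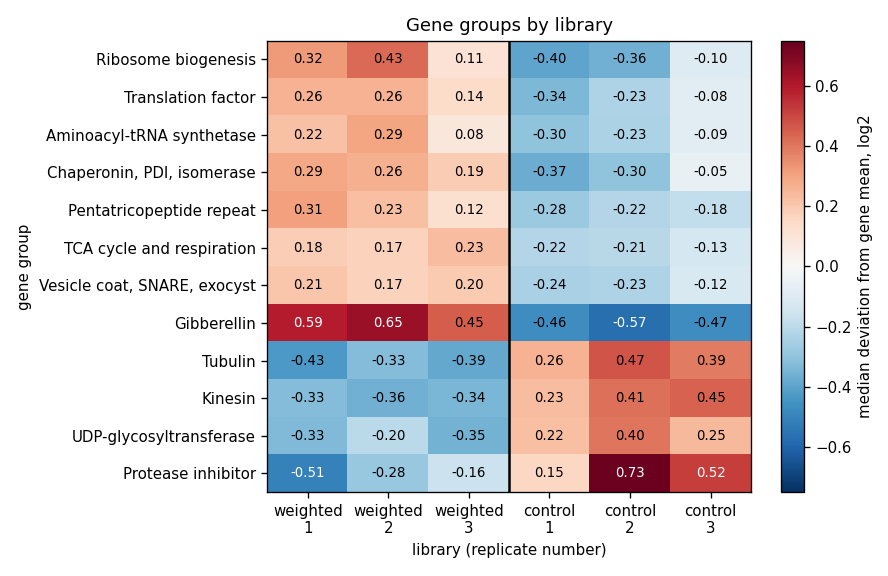
Median deviation of each gene group's members from their mean over the 6 libraries, on a log2 colour scale, with the 3 weighted libraries left of the 3 control libraries. In ribosome biogenesis weighted replicate 3 (0.11) and control replicate 3 (-0.10) lie nearest to each other.

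The 10 most abundant genes among those read plainly were all higher in weighted stems, by 0.25 to 0.83 on the log2 scale. Over all tested genes 48.3% were called higher. The 10 were 7 genes with ribosomal protein names or domains, nucleoside diphosphate kinase and 2 cytochrome genes of respiration, and 60S ribosomal protein L29 (Solyc05g053440.4) had 898, 1053 and 925 FPKM in weighted stems, against 474, 513 and 638 FPKM in control stems. Genes above that level are mostly among the 89 whose digits had run together. Read by a score chosen after seeing the data, 83 of these could be tested, of which 21 were called higher and 60 lower, at a median difference of -0.55, so this is not a list of the most abundant transcripts of the stem. A single tested gene was listed at 0 in all 3 libraries of a group: Solyc01g066040.2, which has no name or domain, had 6.79, 6.65 and 6.44 FPKM in weighted stems. That gene passed the limit of 1 FPKM only through the weighted libraries and so had to differ.

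The same genes were compared 10 days after the load ended, in libraries that had no part in their selection. Of 4662 that passed the filter there, limma called 0 (0%), while 767 had an unadjusted p under 0.05; the smallest adjusted p was 0.0588. In the 4583 genes tested at both times the median absolute difference was 0.53 on the log2 scale at 6 h. At 10 days it was 0.19 in the same genes. The genes were selected for differing at 6 h, so selection raises the 6 h median and not that at 10 days. The drop between the medians can therefore not be read as a fading of the response, which was not tested.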

How the data were processed

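RNA from whole tomato stems was sequenced in 12 libraries, and the 6 libraries taken at 6 h carry the comparison. Per the labels' protocols, HISAT placed the reads on the genome and Bowtie2 placed them on reference genes; the sources used here name no version, build or counting rule. The deposited tables hold FPKM, computed by the authors for each library, for genes the authors had selected, so depth is unknown and no counting interval was formed. In the deposited 6 h table periods part the columns and tabs mark the decimals; it was read that way, and 89 genes with a lost separator were set aside. Of low values, 3.85% of 2467 lay within 0.005 FPKM of whole multiples of the gene's smallest value, so reads were not recovered.

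Values were taken as log2(FPKM + 1), with a limit of 1 FPKM in 3 libraries, and tested with limma 3.58.1 (R 4.3.3, mean-variance trend, moderated test) with Benjamini-Hochberg adjustment over all tested genes; called means an adjusted p under 0.05. The fit was also run on simulated data, and how it behaves on genes already selected for differing was not tested. An exact permutation test of 3 against 3 cannot go below 0.1, so single genes rest on limma. Tables were made with pandas 2.3.3 under Python 3.11.15, and plots with matplotlib 3.10.9.

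Gene lists, 87 in all, were drawn from the deposited annotation, and the lists and members were chosen with earlier results of these data known; list patterns were narrowed by reading the tables' annotation text. Named genes are the 15 largest and 15 smallest differences with a name and no overlap, the 10 most abundant, up to 2 rises and 2 falls per list at 5 FPKM or more, and genes at 0 throughout a group; others are said to be chosen after their values were seen. Alternatives varied the pseudocount, filter, scaling, replicate block and each library. Names and copies follow the annotation, and 0 identifiers matched the reference gene table, so no sequence or coordinate is given.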

Additional observations from a re-analysis of the deposited data

How the results depend on the processing

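At 6 h the 4905 called genes became 4905 with a pseudocount of 0.1, 4907 with 0.5, 5190 of 5257 with no filter, 4081 of 4103 at 5 FPKM or more, 4875 with library totals equalised, 4621 with median-ratio scaling and 4314 to 4674 without single libraries. Genes lower by at least 1 on the log2 scale numbered 529 with a pseudocount of 0.1, against 349; without single libraries the counts were 341 to 386 higher and 353 to 405 lower. At 10 days the count of 0 became 6 at 5 FPKM or more, 4 with median-ratio scaling and 0 to 2 without single libraries, the 2 coming without control replicate 2. List medians changed sign in few cases: at 5 FPKM or more 2-oxoglutarate dioxygenases gave -0.412 (-0.048 with totals equalised), heat shock genes -0.358, disease resistance genes -0.237, protein phosphatases 2C 0.072 and actin and myosin genes 0.003; the cause was not tested. Replicate numbers did not pair the libraries (correlations of same-numbered deviations -0.365, -0.2925 and -0.0355), and with the replicate block 4483 genes were called. With the 89 set-aside genes read by a score chosen after seeing the data, 4986 of 5022 genes were called. Read depth is unknown, so its effect on low genes was not tested.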
